A study of Mus musculus with 6 samples.

Results

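Genes of the lysosome were followed in macrophages sorted by Cxcr4, the receptor for the chemokine Cxcl12, from pancreatic ductal adenocarcinomas grown orthotopically in C57BL/6 mice. The genes are 39 chosen by name out of the 53647 in the deposited table: 22 lysosomal hydrolases and their cofactors, 6 lysosomal membrane proteins, 8 subunits of the vacuolar proton pump (V-ATPase) and 3 transcription factors of the MiT/TFE family. Each symbol matched 1 row, and all 39 passed the filter on low counts. Total RNA was sequenced in 6 libraries, 3 of Cxcr4+ macrophages and 3 of Cxcr4- macrophages, and both groups came from the same tumour model with no other treatment named. The Cxcr4+ and Cxcr4- labels describe a sort by expression and not an engineered allele. The labels give neither the tumour cell line nor the age or number of mice, nor is it stated if each library is a different mouse. The p-values therefore describe library-to-library spread, which may be technical.

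Lysosomes are acidic compartments in which macrophages break down what they engulf. Soluble hydrolases digest glycans, glycosaminoglycans, sphingolipids and proteins, glycosylated membrane proteins line the compartment, and the V-ATPase pumps in the protons that the hydrolases need. Tfeb, Tfe3 and Mitf switch on many of these genes by binding a short palindrome known as the CLEAR element, and the kinase mTORC1 holds Tfeb and Tfe3 in the cytoplasm when nutrients are plentiful, so their activity is set largely at the protein level.

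The libraries held 46444934 to 55740671 estimated counts, with the 3 highest totals all in Cxcr4+ macrophages. Of the macrophage markers, Lyz2, Cd68, Cd14, Csf1r and Itgam averaged 6344, 1115, 551.8, 79.5 and 70.4 FPKM (fragments per kilobase of transcript scaled to library size, the authors' unit). The complement genes C1qa, C1qb and C1qc and the mannose receptor Mrc1 each averaged below 1 FPKM and were highest in Cxcr4+ replicate 1. C1qa had 0.361 to 0.435 FPKM in Cxcr4+ and 0 to 0.137 FPKM in Cxcr4- libraries, and C1qb 0.176 to 1.22 and 0 to 0.0619 FPKM. For C1qc and Mrc1 the groups overlapped. Cxcr4 itself had 9.18, 9.04 and 9.59 FPKM in the Cxcr4+ libraries, against 8.56, 5.97 and 7.73 FPKM in the Cxcr4- libraries, and its log2 fold change of 0.27 (SE 0.19) did not pass the test (adjusted p = 0.999 by edgeR). Fibroblast markers (12 listed, Lum at 0 throughout) summed to 5.97 to 27.3 FPKM in Cxcr4+ and 3.38 to 6.75 FPKM in Cxcr4- libraries, the high value being Cxcr4+ replicate 1, and epithelial markers (11 listed) to 1.84 to 3.44 and 3.69 to 6.58 FPKM. The libraries numbered 2 in both groups stood apart from the other 4, with TMM factors (edgeR's correction for library composition) of 1.046 in Cxcr4+ replicate 2 and 1.054 in Cxcr4- replicate 2, against 0.961 to 0.985 in the rest. The part of these differences in the levels below was not tested, except where a value without the library is given.

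The lysosomal genes made up a steady part of the transcriptome. Their summed level was 2655, 2689 and 2676 FPKM in the Cxcr4+ libraries and 2654, 2599 and 2567 FPKM in the Cxcr4- libraries, or 0.632 to 0.644% and 0.624 to 0.639% of all FPKM. The 6 sums lay close together. Every Cxcr4- sum lay below every Cxcr4+ sum, the nearest being 2653.8 and 2654.9 FPKM, while the shares of all FPKM overlapped. Levels of single genes spanned more than 3 orders of magnitude on the FPKM scale, which allows for gene length. The saposin precursor Psap led with 556.0 ± 24.7 FPKM (SD, n = 6 libraries), followed by the membrane glycoprotein Lamp1 at 503.2 ± 18.0 and the beta-hexosaminidase alpha subunit Hexa at 353.0 ± 13.3. Atp6v0d2 was the lowest, at 0.105 ± 0.103 FPKM.

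**Figure D1:**
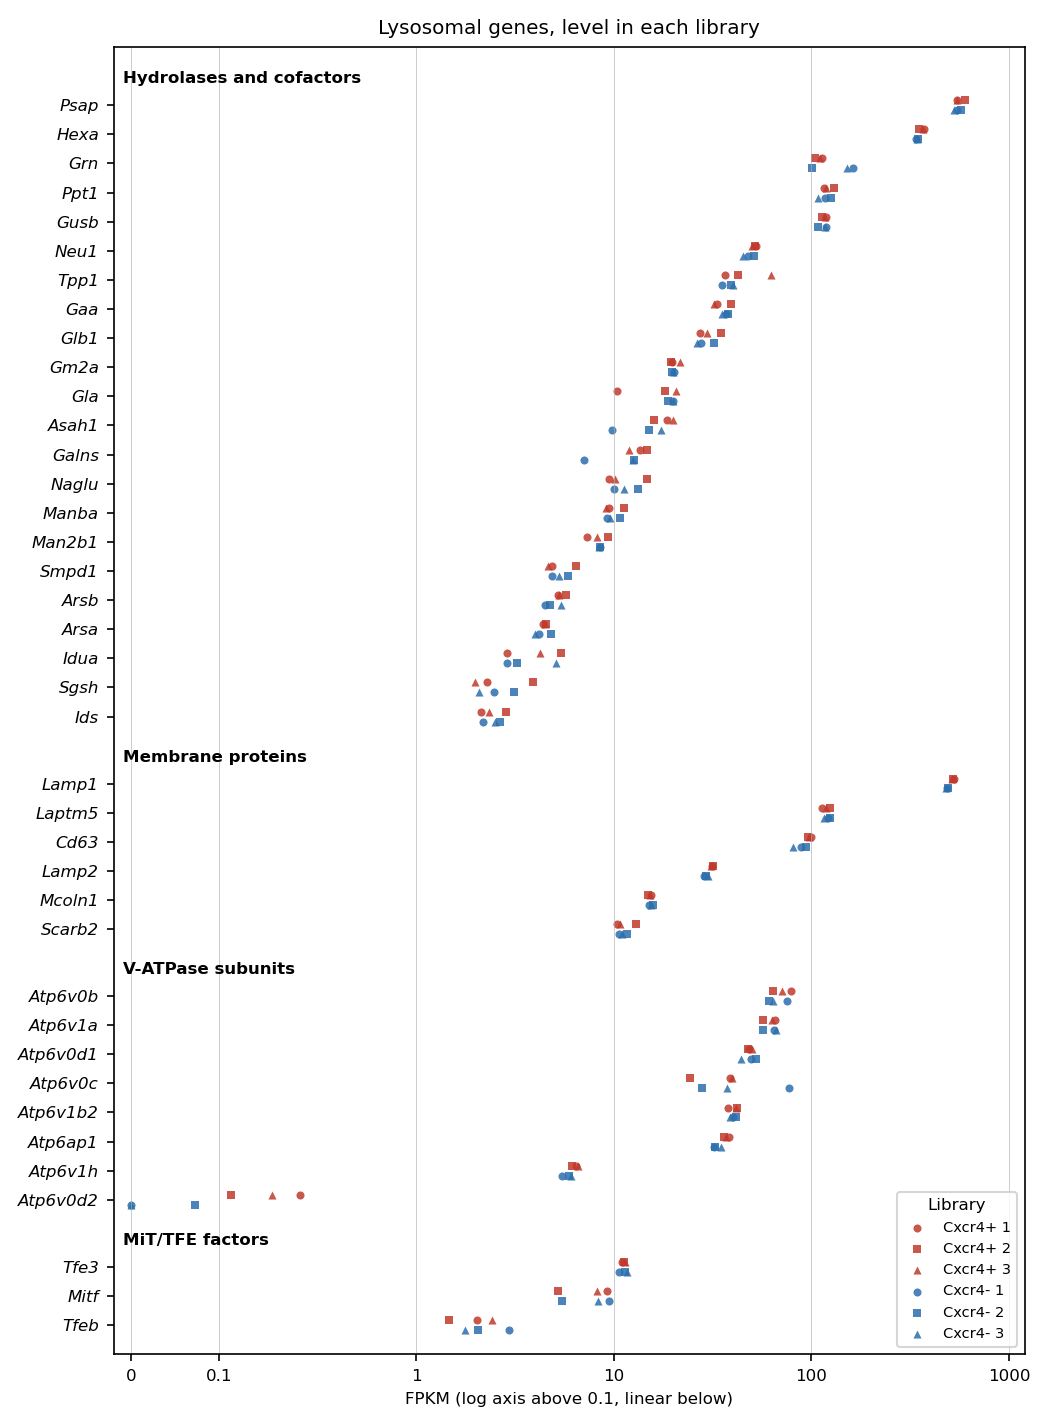
FPKM (horizontal axis, logarithmic above 0.1 and linear below) of the 39 lysosomal genes in each of the 6 libraries, grouped by class and ordered by mean level, with Cxcr4+ libraries in red above Cxcr4- libraries in blue and a symbol for each replicate number. For most genes the 6 points nearly coincide, from Psap at 556.0 FPKM down to Tfeb at 2.11, and Atp6v0d2 lies far below its class.

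None of the lysosomal genes passed the test of Cxcr4+ against Cxcr4- macrophages. In edgeR's quasi-likelihood test, 0 of 39 passed an adjusted p of 0.05, 0 in either direction, where 0.0312% of the 16031 tested genes did. At an unadjusted p under 0.05 the count was again 0 of 39, where 4.85% of tested genes passed, and DESeq2 passed 0 of 39 after adjustment, where 0.405% of tested genes passed. The adjusted p values of the 39 ran from 0.999 to 1.0. Of the log2 fold changes, 26 were positive and 13 negative, with a median of 0.021, against 8031 of 16031 positive (50.1%) and a median of 0.00041 over all tested genes. In RNA from sorted bulk cells, fewer cells of a type and less RNA per cell cannot be told apart.

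The estimates were narrow enough to bound most differences between these libraries. Like the p-values, the intervals describe library-to-library spread, which may be technical, and do not bound differences between mice. The 95% interval of the fold change lay within 2-fold in either direction for 37 of 39 genes, the exceptions being Atp6v0c and Atp6v0d2, and within 1.5-fold for 28 of 39. The median size of a log2 fold change was 0.0784 among the lysosomal genes, beside 0.144 among all tested genes and 0.107 among those of at least 1 FPKM. The 11 genes whose interval reached beyond 1.5-fold were Gla, Sgsh, Idua, Galns, Asah1, Tpp1, Grn, Atp6v0c, Atp6v0d2, Tfeb and Mitf.

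**Figure D2:**
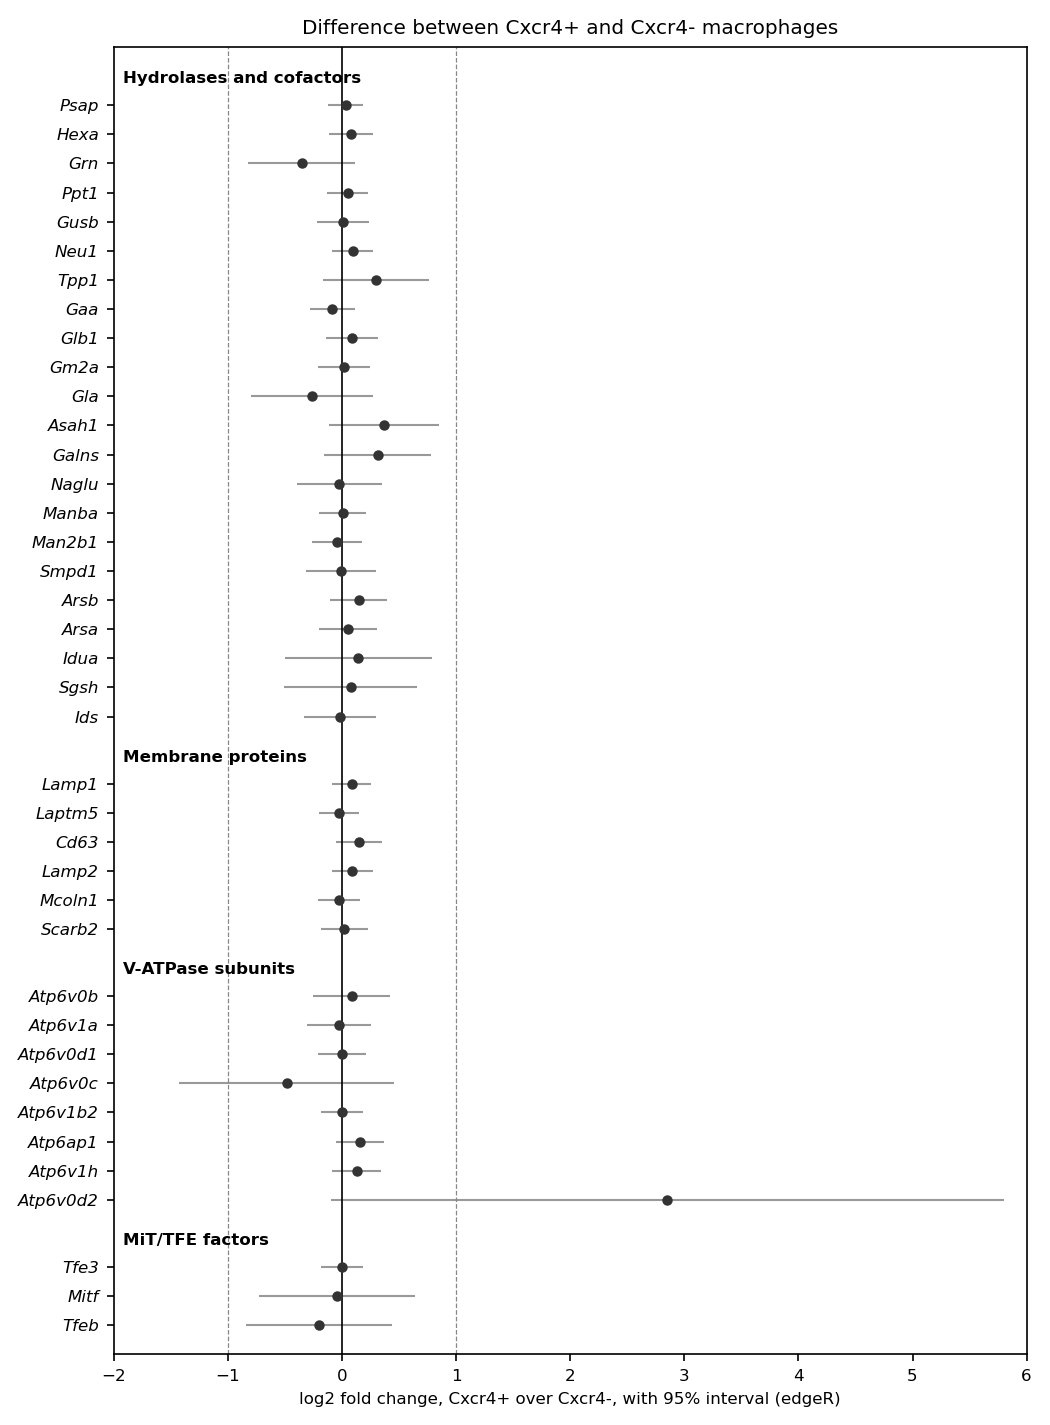
log2 fold change of Cxcr4+ over Cxcr4- macrophages for each lysosomal gene (points) with its 95% interval from edgeR (bars), and dashed lines at 2-fold. Every interval crosses 0, and the intervals of Atp6v0c and Atp6v0d2 alone extend past 2-fold.

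The promoters of 11 of the genes are shown because they hold the letters that the MiT/TFE factors are known to bind. RefSeq windows of 300 bases on GRCm38.p6, from 250 before to 50 after a start site, were held for 34 of the 39 genes. The palindrome CACGTG, the core of the CLEAR element, was found in the windows of 11 of these 34 genes (32.4%), against 8.09% of the 27025 genes with a window. All 11 also held the flanked form TCACGTG, read on either strand and overlapping the palindrome, against 4.29% of all genes. The related M-box letters TCATGTG, on either strand, occurred in 6 of the 34 (Atp6v0c, Gla, Grn, Ppt1, Scarb2 and Tpp1), against 4.31% of all genes. As many lysosomal genes are known targets of the element, a share above that of all genes was likely before looking. The comparison takes in all genes with a window, whether or not they are expressed here. These matches describe the windows and do not show binding. The Lamp1 window held the most palindromes of the 11, with 4 within the last 61 bases before the start, and that of Mcoln1 held 2. Both are printed 5′ to 3′ on the gene's own strand, with CACGTG in capitals.
Lamp1 (chr8:13158911-13159210, forward strand): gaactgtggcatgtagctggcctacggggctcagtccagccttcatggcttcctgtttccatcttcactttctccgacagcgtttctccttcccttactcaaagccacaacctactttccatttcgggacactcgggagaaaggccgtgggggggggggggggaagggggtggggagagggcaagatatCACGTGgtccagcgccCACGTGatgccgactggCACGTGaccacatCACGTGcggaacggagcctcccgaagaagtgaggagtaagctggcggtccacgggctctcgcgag
Mcoln1 (chr8:3500269-3500568, forward strand): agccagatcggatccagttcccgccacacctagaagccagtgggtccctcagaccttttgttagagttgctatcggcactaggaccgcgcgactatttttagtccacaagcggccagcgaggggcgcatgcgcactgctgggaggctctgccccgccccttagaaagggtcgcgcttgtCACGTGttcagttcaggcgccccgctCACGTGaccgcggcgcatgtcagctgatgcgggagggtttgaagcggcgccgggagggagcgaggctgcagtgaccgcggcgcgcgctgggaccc

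The other 9 genes with the palindrome were 6 hydrolases (Arsa, Gaa, Gla, Glb1, Naglu and Sgsh) and 3 pump subunits (Atp6v0b, Atp6v0d1 and Atp6v1a). For each of them 40 bases around the palindrome nearest the start site are given in the same way. How alike the flanks are was not measured.
Arsa (chr15:89477418-89477457, reverse strand, 16 bases before the start): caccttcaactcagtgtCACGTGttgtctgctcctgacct
Gaa (chr11:119267806-119267845, forward strand, 140 bases before the start): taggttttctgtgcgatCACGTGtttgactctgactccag
Gla (chrX:134601177-134601216, reverse strand, 194 bases before the start): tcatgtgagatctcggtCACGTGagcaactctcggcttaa
Glb1 (chr9:114401013-114401052, forward strand, 48 bases before the start): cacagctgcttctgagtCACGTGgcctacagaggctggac
Naglu (chr11:101070004-101070043, forward strand, 73 bases before the start): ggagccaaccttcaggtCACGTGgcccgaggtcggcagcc
Sgsh (chr11:119355517-119355556, reverse strand, 29 bases before the start): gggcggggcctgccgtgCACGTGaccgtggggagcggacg
Atp6v0b (chr4:117887325-117887364, reverse strand, 18 bases before the start): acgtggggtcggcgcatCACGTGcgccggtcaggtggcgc
Atp6v0d1 (chr8:105566045-105566084, reverse strand, 3 bases before the start): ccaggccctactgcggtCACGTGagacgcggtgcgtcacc
Atp6v1a (chr16:44139368-44139407, reverse strand, 131 bases before the start): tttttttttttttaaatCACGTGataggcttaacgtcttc
The flanked form counted above is present in each of these 9 windows, on one strand or on both. The 11 genes with the palindrome had log2 fold changes of -0.26 (Gla) to 0.089 (Glb1) with a median of 0.00027 and 6 of 11 positive. The 23 genes whose windows lacked it ran from -0.48 (Atp6v0c) to 0.30 (Tpp1), with a median of 0.018 and 15 of 23 positive. Neither set held a gene that passed the test.

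The factors that read this element did not differ detectably in RNA level. Tfe3, the most abundant of the 3, had 11.0, 11.3 and 11.4 FPKM in Cxcr4+ libraries and 10.6, 11.4 and 11.6 FPKM in Cxcr4- libraries. The groups overlapped fully, and the 95% interval of its log2 fold change was -0.18 to 0.18. Mitf, the melanocyte and osteoclast factor that also binds this element, had 9.20, 5.19 and 8.19 FPKM in Cxcr4+ and 9.40, 5.46 and 8.34 FPKM in Cxcr4- libraries. Its low values were those of the libraries numbered 2 in both groups, while the log2 fold change between the groups was -0.046 (SE 0.29, interval -0.73 to 0.64). Tfeb, the best-known driver of lysosome formation, was the least abundant, with 2.03, 1.46 and 2.41 FPKM in Cxcr4+ and 2.93, 2.05 and 1.77 FPKM in Cxcr4- libraries (log2 fold change -0.20, SE 0.27). The fourth family member, Tfec, was below 0.1 FPKM in every library. Mast cell markers, checked because mast cells also use Mitf, were at or near 0: 5 of 9 (Mcpt4, Cma1, Tpsb2, Fcer1a and Ms4a2) had no counts, and the list summed to 0.221 to 0.383 FPKM in Cxcr4+ and 0.202 to 0.298 FPKM in Cxcr4- libraries.

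Among the hydrolases and cofactors, 15 of 22 log2 fold changes were positive and the median was 0.042. The most abundant pair, Psap and Hexa, act in sphingolipid breakdown. Psap, cut into the saposins that present lipids to their enzymes, had 546.5, 598.7 and 545.6 FPKM in Cxcr4+ libraries and 545.5, 570.3 and 529.5 FPKM in Cxcr4- libraries, and its log2 fold change was 0.033 (interval -0.12 to 0.19). The groups overlapped, and the highest library of each was the one numbered 2. Hexa, which acts in removing terminal hexosamines from gangliosides, had 370.8, 350.4 and 368.1 FPKM in Cxcr4+ against 340.0, 346.9 and 341.8 FPKM in Cxcr4- libraries (log2 fold change 0.078, SE 0.083). The Hexa values did not overlap, the nearest being 350.4 and 346.9 FPKM. Its cofactor Gm2a averaged 20.2 ± 1.19 FPKM in Cxcr4+ and 19.9 ± 0.252 FPKM in Cxcr4- libraries (SD, n = 3 each).

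Asah1, the acid ceramidase, had the smallest p of the hydrolases. It had 18.5, 16.0 and 19.8 FPKM in Cxcr4+ and 9.74, 15.04 and 17.4 FPKM in Cxcr4- libraries, and edgeR gave an adjusted p of 0.999 for its log2 fold change of 0.37 (SE 0.20). The groups overlapped, and 1 library, Cxcr4- replicate 1, lay well below the other 5; without it the log2 fold change was 0.18. The remaining sphingolipid enzymes differed by less than the spread between libraries: the acid sphingomyelinase Smpd1 averaged 5.32 ± 0.981 FPKM in Cxcr4+ and 5.32 ± 0.483 FPKM in Cxcr4- libraries, the sulfatide-cleaving Arsa 4.47 ± 0.0827 and 4.31 ± 0.425 FPKM, and the beta-galactosidase Glb1 30.6 ± 3.76 and 28.6 ± 3.01 FPKM. Gla, the alpha-galactosidase that clears globotriaosylceramide, had 10.3, 18.1 and 20.7 FPKM in Cxcr4+ and 19.8, 18.8 and 19.9 FPKM in Cxcr4- libraries. A single low library, Cxcr4+ replicate 1, set its log2 fold change of -0.26, which was -0.026 without that library.

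Enzymes of glycosaminoglycan breakdown ranged widely in level. Ids, the iduronate sulfatase, was the lowest of all 22, with 2.12, 2.83 and 2.32 FPKM in Cxcr4+ and 2.17, 2.64 and 2.51 FPKM in Cxcr4- libraries (log2 fold change -0.017, interval -0.33 to 0.30). Its values overlapped throughout. Galns, which removes sulfate from keratan sulfate and chondroitin 6-sulfate, had 13.5, 14.7 and 11.9 FPKM in Cxcr4+ and 7.09, 12.6 and 12.5 FPKM in Cxcr4- libraries (log2 fold change 0.31 with SE 0.20; by edgeR, adjusted p = 0.999). As with Asah1, the low value was Cxcr4- replicate 1, and without it the log2 fold change was 0.11. The heparan sulfate enzymes Sgsh (log2 fold change 0.076, SE 0.25), Naglu (-0.023, SE 0.16) and Idua (0.14, SE 0.28) varied more between libraries of a group than between the groups. Arsb, which acts on dermatan sulfate, differed by 0.15 (SE 0.11) on the log2 scale, and the beta-glucuronidase Gusb by 0.0085 (SE 0.098).

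No enzyme of glycoprotein, glycogen or protein breakdown passed either. Log2 fold changes were -0.084 for Gaa, the acid alpha-glucosidase of glycogen, -0.042 for the alpha-mannosidase Man2b1, 0.0059 for the beta-mannosidase Manba, 0.096 for the sialidase Neu1 and 0.051 for the thioesterase Ppt1, none with a standard error above 0.1. Tpp1, a tripeptidyl peptidase, had 36.4, 42.3 and 62.7 FPKM in Cxcr4+ and 35.3, 39.3 and 40.2 FPKM in Cxcr4- libraries. Cxcr4+ replicate 3 alone stood out, and without it the log2 fold change fell to 0.015, against 0.30 (SE 0.20) with all libraries. Grn, the progranulin precursor that lysosomes cut into granulins, had 113.5, 104.2 and 110.2 FPKM in Cxcr4+ and 162.2, 100.3 and 152.1 FPKM in Cxcr4- libraries. The Cxcr4+ values were tight, and those of Cxcr4- replicates 1 and 3 lay above all others while replicate 2 lay below them. The log2 fold change was -0.35 with SE 0.20, edgeR gave an adjusted p of 0.999, and leaving out Cxcr4- replicate 1 gave -0.19, while leaving out Cxcr4- replicate 2 gave -0.56.

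**Figure D3:**
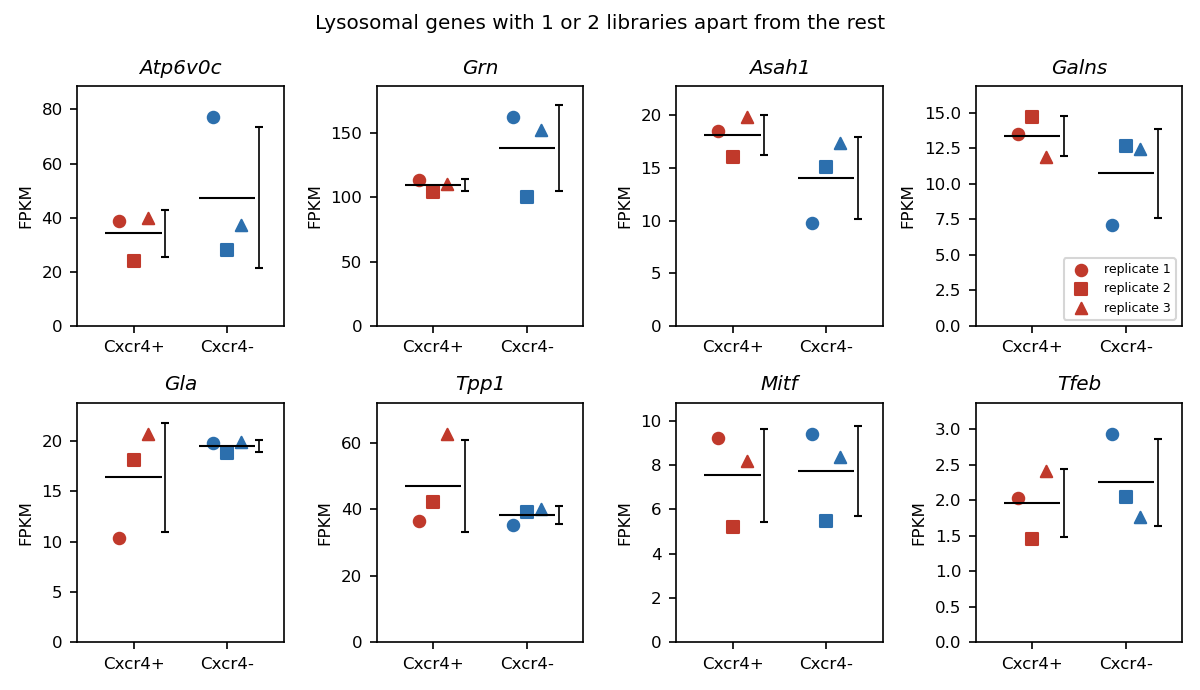
FPKM (vertical axes, from 0) of 8 lysosomal genes in Cxcr4+ (red, left) and Cxcr4- (blue, right) libraries, with a symbol for each replicate number, lines at the group means and bars of 1 SD. Atp6v0c, Asah1 and Galns depart in Cxcr4- replicate 1, Gla in Cxcr4+ replicate 1 and Tpp1 in Cxcr4+ replicate 3, while Mitf is low in both libraries numbered 2.

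Departures of a single library were also counted over all 39 genes. In 4 of the 39 genes (10.3%) 1 library lay at least 1.5-fold from its nearest neighbour at the top or bottom of the range. These were Gla, Galns, Asah1 and Atp6v0c. The share of 10.3% was below that of all tested genes (3212 of 16031). It was above the 4.0% of tested genes of at least 5 FPKM (252 of 6303). The 39 include genes under 5 FPKM, such as Sgsh and Ids, but the 4 named averaged above that level. Cxcr4- replicate 1 was the departing library for Asah1 and Galns, where it was low, and for Atp6v0c, where it was high. How often this library departs over all tested genes was not counted. Gla, Tpp1, Hexa, Sgsh and Atp6v0c are given library by library because of their values, outside the rule that chose the other genes. Of the 39 genes, 15 overlap another annotated gene, 5 of them (Glb1, Manba, Idua, Ppt1 and Lamp1) one of at least 1 FPKM. The most abundant such neighbour was Cap1, at 245.9 FPKM, which overlaps Ppt1 by 32 bases on the opposite strand. As use of strand in counting is not stated, reads in these stretches could belong to either gene.

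The lysosomal membrane proteins were the steadiest class, with a median coefficient of variation of 3.94% over the 6 libraries, beside 18.1% for all tested genes and 11.1% for those of at least 5 FPKM. Lamp1, the major glycoprotein of the lysosomal membrane (chromosome 8, 13209161 to 13225338 in GRCm39, the files' build), had 524.4, 518.4 and 514.5 FPKM in Cxcr4+ and 486.6, 492.9 and 482.6 FPKM in Cxcr4- libraries. Its relative Lamp2, needed for chaperone-mediated autophagy, had 31.5, 31.6 and 30.8 FPKM in Cxcr4+ and 28.5, 29.1 and 30.1 FPKM in Cxcr4- libraries. Cd63, a tetraspanin of late endosomes and exosomes, had 99.7, 95.7 and 96.7 FPKM in Cxcr4+ and 88.6, 93.6 and 80.7 FPKM in Cxcr4- libraries. In all 3 genes every Cxcr4+ library lay above every Cxcr4- library on the FPKM scale, by a small margin, as in 5.5% of tested genes. After TMM scaling the groups overlapped in all 3. The log2 fold changes were 0.086 (SE 0.074) for Lamp1, 0.093 (SE 0.078) for Lamp2 and 0.15 (SE 0.086) for Cd63, all with an adjusted p of 0.999 or more by edgeR. Cd63 has a transcribed copy, Cd63-ps, at 34.2 FPKM, which shares 9.7% of the 50-base words of its transcripts, so counts could be split between them.

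The other 3 membrane proteins overlapped between the groups. Scarb2, which carries beta-glucocerebrosidase to the lysosome, was the least abundant with 10.3, 12.9 and 10.7 FPKM in Cxcr4+ and 10.6, 11.7 and 11.0 FPKM in Cxcr4- libraries (log2 fold change 0.021, SE 0.088). Mcoln1, the calcium channel through which lysosomes signal to Tfeb, varied least of all 39 genes on the FPKM scale, though not after TMM scaling, at 15.2 ± 0.230 FPKM in Cxcr4+ and 15.4 ± 0.329 FPKM in Cxcr4- libraries (SD, n = 3 each). Laptm5, a membrane protein of leukocyte lysosomes, averaged 118.8 ± 5.18 and 120.3 ± 4.58 FPKM.

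Complete separation of the groups depended on the scale. On the deposited FPKM scale 7 of 39 genes were higher in all 3 Cxcr4+ libraries than in any Cxcr4- library (Hexa, Lamp1, Lamp2, Cd63, Atp6ap1, Atp6v1h and Atp6v0d2) and 0 were lower, against 5.5% of tested genes higher and 4.87% lower, or 10.4% in either direction. Atp6v0d2 passed the filter on low counts mainly through its Cxcr4+ libraries, so its separation was partly set by that filter. After TMM scaling of the counts, 1 of 39 remained, this same Atp6v0d2, against 5.85% of tested genes. Lamp1, for example, had 1618, 1490 and 1590 TMM-scaled CPM (counts scaled to library size) in Cxcr4+ and 1530, 1417 and 1479 in Cxcr4- libraries, so that Cxcr4+ replicate 2 fell below Cxcr4- replicate 1.

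No listed subunit of the proton pump passed the test. Of 8 log2 fold changes 6 were positive, with a median of 0.043, which ran from 0.002 to 0.12 over the alternative settings. In the membrane-bound V0 part, the ring subunit Atp6v0b was the most abundant of the listed subunits, with 78.5, 64.0 and 71.2 FPKM in Cxcr4+ and 75.5, 60.8 and 64.0 FPKM in Cxcr4- libraries (log2 fold change 0.086, SE 0.14). Its low values again included both libraries numbered 2. The accessory subunit Atp6ap1 had 38.0, 36.2 and 37.1 FPKM in Cxcr4+ and 32.0, 32.5 and 34.8 FPKM in Cxcr4- libraries, without overlap on this scale (log2 fold change 0.16 with SE 0.090; by edgeR, adjusted p = 0.999). In the cytosolic V1 part, Atp6v1h, which governs the coupling of the pump, had 6.41, 6.15 and 6.58 FPKM in Cxcr4+ and 5.48, 5.93 and 6.05 FPKM in Cxcr4- libraries (log2 fold change 0.13, SE 0.092). The catalytic subunit Atp6v1a averaged 61.8 ± 4.24 FPKM in Cxcr4+ and 62.7 ± 4.82 FPKM in Cxcr4- libraries, and its partner Atp6v1b2 40.3 ± 2.39 and 40.2 ± 1.55 FPKM (SD, n = 3 each).

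Atp6v0c, the proteolipid of the proton-carrying ring, had the largest spread of the abundant subunits. It had 38.8, 24.2 and 39.8 FPKM in Cxcr4+ and 77.1, 28.0 and 37.2 FPKM in Cxcr4- libraries. A single library, Cxcr4- replicate 1, lay far above the others, and the log2 fold change of -0.48 (SE 0.41) became 0.10 without it. The processed copy Atp6v0c-ps2 held 55429 counts over the 6 libraries, beside 47694 for the gene itself, and the 2 share 366 of the 50-base words of their transcripts, so the level of Atp6v0c is uncertain. Of the counts of both together, Atp6v0c took 59.9% in Cxcr4- replicate 1 and 37.0 to 45.7% in the other 5 libraries. Summed, the 2 had 311.0 ± 72.5 TMM-scaled CPM in Cxcr4+ and 367.5 ± 127.0 in Cxcr4- libraries (SD, n = 3 each; exact two-sided permutation p = 0.6, where the smallest possible is 0.1).

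The 2 forms of subunit d, which links the ring to the stalk, differed widely in level. Atp6v0d1, the form found in most cells, averaged 48.7 ± 1.07 FPKM in Cxcr4+ and 48.6 ± 4.08 FPKM in Cxcr4- libraries (SD, n = 3 each), and the interval of its log2 fold change was -0.21 to 0.21. Atp6v0d2, the form known from osteoclasts and some macrophages (chromosome 4, 19876841 to 19922605 in GRCm39), had 45, 19 and 30 estimated counts in Cxcr4+ and 0, 12 and 0 in Cxcr4- libraries. Every Cxcr4+ library lay above every Cxcr4- library, yet the Cxcr4- values are at or under a floor of 12 counts per library, set at 3 fragments of 4 counts. The gene passed the filter on low counts mainly through its Cxcr4+ libraries, so this separation was partly set by that filter. None of the Cxcr4+ counts is a multiple of 4, so the number of fragments behind them is not known and no counting interval is given. The fitted log2 fold change was 2.85 with SE 1.26, and it did not pass in edgeR (adjusted p = 0.999). Cxcr4+ replicate 1, where fibroblast markers and C1qa, C1qb, C1qc and Mrc1 were highest, had the most counts, and the fitted value was 2.54 without it. Without Cxcr4- replicate 2 the other Cxcr4- counts are all 0, and the fitted value of 7.90 then depends on the prior count of the method. Osteoclast markers (10 listed, Calcr at 0 throughout) summed to 43.6 to 51.2 FPKM in Cxcr4+ and 47.7 to 55.1 FPKM in Cxcr4- libraries. Over all libraries Mmp9, Acp5, Tnfrsf11a and Nfatc1 averaged 20.2, 8.70, 8.45 and 5.08 FPKM. The fusion gene Dcstamp averaged 2.78 and Ctsk 2.45 FPKM, while Itgb3, Oscar and the fusion gene Ocstamp were each below 1 FPKM.

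The remaining pump genes, from a list of the other subunits and assembly factors, show which paralogs these macrophages used; their levels are described after being seen. Of the 4 forms of subunit a, Tcirg1 (the a3 form of osteoclasts and macrophages) averaged 165.7 ± 27.4 FPKM (SD, n = 6 libraries), against 4.96 for Atp6v0a2, 1.67 for Atp6v0a1 and 0.0149 for Atp6v0a4. The kidney form Atp6v1b1 was near 0, at 0.00725 FPKM beside 40.2 for Atp6v1b2. Atp6v1g1 stood at 138.8 FPKM, against 0.585 for Atp6v1g2 and 0.00566 for Atp6v1g3. Of this list, 0 of 21 tested genes passed in either direction. Those with the smallest p were Oxr1 (log2 fold change 0.41), a TLDc protein, Atp6ap2 (0.14), the second accessory subunit, and Atp6v0a1 (0.24).

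The libraries numbered 2 stood together in part of the lysosomal genes, at shares near those of other genes of like level. On the FPKM scale both lay above the other 4 libraries in 14 of 39 genes, 11 of them hydrolases, and below in 6, or 35.9% and 15.4%, against 26.2% of tested genes above and 9.74% below. Among tested genes of at least 5 FPKM the shares were 33.1% above and 12.0% below. After TMM scaling the counts were 5 above and 10 below, or 12.8% and 25.6%, against 16.5% and 16% of tested genes and 18.9% and 21.8% of those of at least 5 FPKM. The hydrolases Glb1, Manba, Naglu, Sgsh and Smpd1 were above on both scales. Gusb, Grn, Atp6v0b, Atp6v0c, Atp6v1a and Mitf were below on both. Sgsh showed the pattern most plainly among the heparan sulfate enzymes, with 3.90 FPKM in Cxcr4+ replicate 2 and 3.11 in Cxcr4- replicate 2, beside 1.98 to 2.28 in the other Cxcr4+ and 2.06 to 2.48 in the other Cxcr4- libraries. The labels do not say what the shared number stands for, and its part in these levels was not tested. With the libraries numbered 1 and 3 alone, 0 of 39 genes passed.

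**Figure D4:**
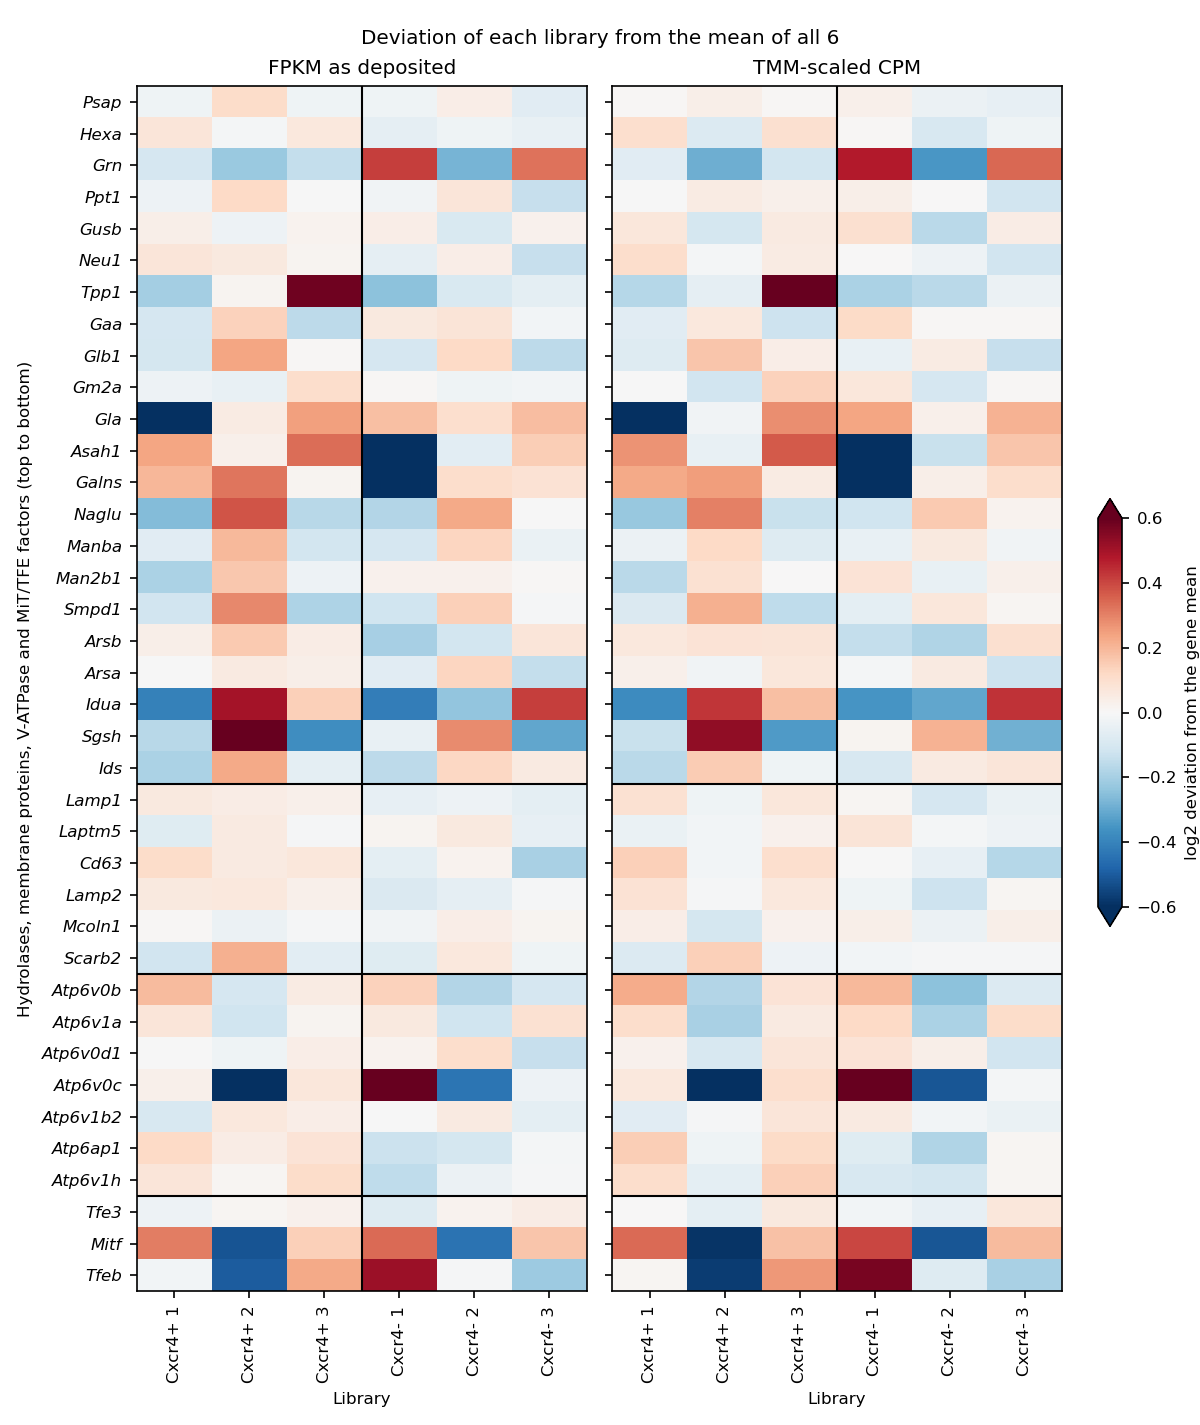
log2 deviation of each library from the mean of all 6, for 38 lysosomal genes (Atp6v0d2, with values of 0, is left out), on the deposited FPKM scale (left) and after TMM scaling of the counts (right); red is above and blue below the gene's mean, and colours saturate at 0.6. Mitf and Atp6v0c are blue in both libraries numbered 2, Glb1, Naglu and Sgsh are red there, and the membrane proteins are pale throughout.

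Among other genes of the lysosomal pathway none passed. Of the other soluble enzymes and activators, 0 of 27 tested genes passed in either direction, with 17 positive log2 fold changes and a median of 0.047. Scpep1, a serine carboxypeptidase, averaged 75.2 ± 6.02 FPKM in Cxcr4+ and 62.8 ± 3.94 FPKM in Cxcr4- libraries (log2 fold change 0.25 with SE 0.074; by edgeR, adjusted p = 0.953). On the FPKM scale every Cxcr4+ value of Scpep1 lay above every Cxcr4- value, as in 5.5% of tested genes. Its separation after TMM scaling was not examined. Cpq, a carboxypeptidase of the same list, had a log2 fold change of 0.37 at 0.542 ± 0.135 and 0.417 ± 0.132 FPKM. Of the cathepsins and related proteases 0 of 14 passed, with 10 positive and a median of 0.10, and those with the smallest p were Ctsl (log2 fold change 0.21), Ctse (0.55) and Ctsc (0.24). Ctsl, an endopeptidase, averaged 208.4 ± 7.97 FPKM in Cxcr4+ and 179.8 ± 11.1 FPKM in Cxcr4- libraries.

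Of the other lysosomal membrane proteins and transporters 0 of 25 passed (median 0.0079), led by Tmem63a (log2 fold change -0.23), a mechanically gated channel, Slc29a3 (0.30), a nucleoside transporter, and Slc17a5 (0.57), the sialic acid exporter, which had 4.93 FPKM in Cxcr4- replicate 1 and 10.5 to 16.8 FPKM in the other 5 libraries. The genes that tag hydrolases with mannose 6-phosphate and sort them gave 0 of 19 (median 0.040), with the smallest p for Gga3 (0.44), an adaptor that loads them into vesicles, Nagpa (-0.50), the uncovering enzyme, and Vps26a (0.13), a retromer subunit. For the mTORC1 and Rag GTPase genes that control Tfeb the count was 0 of 24 (median -0.045), with Rheb (0.17), the activator of mTORC1, Flcn (-0.43), a Rag regulator, and Lamtor2 (-0.12), a Ragulator subunit, nearest to the threshold. Autophagy and lysosomal stress genes gave 0 of 24 (median -0.040). There Wipi2 (-0.21), Atg9a (-0.25) and Map1lc3b (-0.18), which act in forming autophagosomes, had the smallest p. In each of the 3 every Cxcr4+ library lay below every Cxcr4- library on the FPKM scale, as in 4.87% of tested genes. In 2 others of this list every Cxcr4+ library lay above every Cxcr4- library on that scale, as in 5.5% of tested genes. They were the autophagosome protein Gabarap (log2 fold change 0.16) and the galectin Lgals3 (0.10). Separation after TMM scaling was not examined for any gene of this list. Map1lc3b had 13.1, 13.0 and 12.9 FPKM in Cxcr4+ and 16.2, 14.4 and 13.5 FPKM in Cxcr4- libraries.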

How the data were processed

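RNA of Cxcr4+ and Cxcr4- tumour macrophages was sequenced in 6 libraries. The submitters' processing notes list GRCm39, HISAT2, StringTie and cutadapt; for versions, annotation, counting settings and strand use, nothing is given in the sources used here. The deposited file held estimated counts and FPKM per gene and library, made by the authors, per the file headers. The estimated counts deposited by the authors were whole numbers, so rounding changed 0 of them, but 43.2% of values from 1 to 20 were multiples of 4, against 25% if spread evenly, so a fragment can stand as 4 counts. The deposited FPKM holds a small constant where the count is 0, which was read as 0.

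The main test was edgeR's quasi-likelihood test (version 4.0.16, legacy dispersion, R 4.3.3) of Cxcr4+ over Cxcr4-. Low genes were removed by filterByExpr with a count of 10 and a total of 15, libraries were scaled by TMM, the design held the group only, and p-values of the 16031 genes kept were adjusted by Benjamini-Hochberg. The standard error is the size of the log2 fold change over the square root of F. The procedure was tested on simulated data. Alternatives used limma 3.58.1 and DESeq2 1.42.0. Genes, lists and tests were chosen with earlier results of these data known. Values of every library were given, by rule, for the 3 genes of smallest p and the most and least abundant gene of each class, and for other lists the 3 of smallest p, of which 1 is not reported here. Shared words of 50 bases were counted in GENCODE M21 transcripts, and promoter windows came from RefSeq on GRCm38.p6, whose coordinates were not set against those of the table.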

Additional observations from a re-analysis of the deposited data

How the results depend on the processing

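None of the lysosomal genes passed under any of the 19 alternatives, where the smallest adjusted p was 0.36. At an unadjusted p under 0.05 the count ran from 0 in the main test to 3 with the libraries numbered 2 as a block. That block fit had 1485 of 16031 tested genes under this threshold. DESeq2 had 1 of the 39 under it, and 899 of 16031 tested genes. After adjustment the count over all genes, 5 in the main test, was 65 by DESeq2. It was 2 and 1 by limma-trend on log2(FPKM + 1) and log2(FPKM + 5), and 1 to 9 leaving out 1 library. A fit with a replicate block passed 0 genes over the whole table and 0 of the 39; deviations of same-numbered libraries correlated at 0.0383, 0.141 and 0.0451 for numbers 1, 2 and 3, and the numbers were not read as pairing the samples. Class medians moved by less than the spread between libraries in 94 of 95 recomputations; the exception was the median of all 39, at 0.061 without Cxcr4- replicate 1, within a leave-one-out range of 0.022 to 0.061. Over all settings the V-ATPase median ran from 0.002, where Atp6v0d2 was filtered out, to 0.12. The MiT/TFE median changed sign, running from -0.27 to 0.076, but the spread between libraries it was set against was wide, at 0.35. Of 740 recomputed log2 fold changes of single genes, 54 changed sign, and the cause was not tested. Outside leave-one-out these were Tfe3 (-0.0003 without the count filter, -0.0002 with the libraries numbered 2 as a block), Atp6v0d1 (-0.0011 with that block), Atp6v1b2 (-0.0002 with the replicate block) and, with the libraries numbered 1 and 3 alone, Gusb (-0.012), Manba (-0.026), Sgsh (-0.10), Idua (-0.17), Scarb2 (-0.047) and Atp6v1b2 (-0.0044). Leaving out 1 library, the log2 fold change ran from -0.0101 to 0.22 for Atp6v0b, -0.78 to 0.10 for Atp6v0c, -0.055 to 0.048 for Atp6v0d1, -0.12 to 0.0596 for Atp6v1a, -0.037 to 0.034 for Atp6v1b2, -0.0502 to 0.079 for Gm2a, -0.064 to 0.062 for Gusb, -0.10 to 0.056 for Ids, -0.043 to 0.45 for Idua, -0.044 to 0.0089 for Laptm5, -0.10 to 0.025 for Man2b1, -0.055 to 0.045 for Manba, -0.052 to 0.019 for Mcoln1, -0.27 to 0.19 for Mitf, -0.20 to 0.08 for Naglu, -0.047 to 0.067 for Scarb2, -0.23 to 0.24 for Sgsh, -0.13 to 0.063 for Smpd1, -0.031 to 0.034 for Tfe3 and -0.39 to 0.076 for Tfeb. Low depth limits Atp6v0d2 alone among the 39, as its counts are near the floor, and it was not tested under the filter of at least 1 FPKM in 3 libraries.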
